A study of Mus musculus with 72 samples.

Results

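The SWI/SNF complexes are large machines that use ATP to slide, eject or exchange nucleosomes, and 10 genes that encode their subunits were followed through all 7 count tables of a mouse in vitro fertilization (IVF) study. The 10 symbols were listed by name (Smarca4, Smarca2, Smarcb1, Smarcc1, Smarcc2, Smarcd1, Arid1a, Arid1b, Arid2 and Pbrm1), because Smarca4 was among the lower genes of IVF testis at 39 weeks. All 10 were found among the 24107 symbols that the 7 tables share, and all 10 passed the count filter in each table. The list was thus chosen by the counts of the 39-week testis, and the values of that contrast are given below as a description, without a test.

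The study compared mice conceived by IVF with naturals, which were conceived by mating. F1 naturals came from CF-1 females mated in natural estrus to SJL/B6 males heterozygous for a GFP transgene, with no embryo transfer. F1 IVF offspring came from eggs of superovulated CF-1 females and sperm of SJL/B6 males, also heterozygous for GFP by the methods. Their embryos were cultured to the blastocyst and transferred to pseudopregnant CF-1 females. F1 pups of the adult cohorts were delivered by C-section, later in the IVF group than in naturals, and fostered. IVF offspring therefore also differed from naturals by superovulation, culture, transfer and, in the adult F1 cohorts, time of delivery. These cannot be told apart in either generation. F2 animals were conceived by natural mating of 12-week-old natural or IVF-conceived males to wild-type CF-1 females, so "IVF" in an F2 group refers to the sire only. The label "genotype" holds only the sex and generation. F1 testes were taken at E18.5 (4 naturals and 6 IVF), at 12 weeks (5 and 5) and at 39 weeks (4 and 6). F2 tissues were taken at 12 weeks and comprised testis (5 naturals and 7 IVF), male liver (5 and 5), female liver (5 and 6) and ovary (4 and 5). The labels do not say which libraries share a litter or an animal, so p-values measure the spread between these libraries.

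Each SWI/SNF complex holds 1 ATPase, either SMARCA4 (BRG1) or its paralog SMARCA2 (BRM). A core of SMARCB1, a pair of the SMARCC1 and SMARCC2 scaffolds and a SMARCD subunit is shared by the main forms. ARID1A or ARID1B marks the canonical BAF form, whereas ARID2 and PBRM1 mark the PBAF form. In the testis SMARCA4 is known to be needed in the germ line for meiotic prophase, and in liver both ATPases have been linked to hepatocyte gene expression.

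On GRCm38, the build given in the labels as mm10, Smarca4 lies on chromosome 9 from 21616169 to 21704230 on the plus strand, and Smarca2 on chromosome 19 from 26605050 to 26778322, also on the plus strand. Smarcd1 lies on the plus strand of chromosome 15 from 99702129 to 99713991. RefSeq promoter windows of 300 bases (250 before and 50 after an annotated start, GRCm38.p6) were found for 9 of the 10 genes, and Arid1a had 2. These windows held 22 to 48 CpG dinucleotides, against a median of 7 over 32851 mouse promoters, and were 60.7% to 81% GC, against a median of 52.7%. The GC box GGGCGG, searched on both strands, was present in 10 of the 10 windows and in 35.7% of all promoters. The CCAAT box (letters CCAAT) was in 0 of the 10 windows and in 37.4% of all promoters, and the E box CACGTG was in the window of Pbrm1 alone, against 7.15% of all promoters. A match is a run of letters and not evidence of binding. Shown are the windows of Smarca4, which chose the list, and of Smarca2 and Smarcd1, the genes with the largest fold changes of opposite sign in both F2 livers. Capitals mark the GC box on either strand.
Smarca4, chr9:21615919-21616218, plus strand: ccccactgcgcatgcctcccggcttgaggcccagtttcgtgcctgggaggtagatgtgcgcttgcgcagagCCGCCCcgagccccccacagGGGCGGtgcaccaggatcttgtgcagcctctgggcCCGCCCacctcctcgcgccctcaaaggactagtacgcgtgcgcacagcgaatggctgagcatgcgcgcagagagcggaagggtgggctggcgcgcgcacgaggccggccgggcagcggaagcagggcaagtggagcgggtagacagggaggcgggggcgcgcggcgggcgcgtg
Smarca2, chr19:26604910-26605209, plus strand: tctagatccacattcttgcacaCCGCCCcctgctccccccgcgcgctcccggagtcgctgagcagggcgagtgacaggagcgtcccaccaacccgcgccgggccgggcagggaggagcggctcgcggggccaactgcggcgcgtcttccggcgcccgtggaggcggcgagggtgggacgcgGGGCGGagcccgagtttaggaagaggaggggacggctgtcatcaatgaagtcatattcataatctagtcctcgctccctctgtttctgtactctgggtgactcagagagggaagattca
Smarcd1, chr15:99702037-99702336, plus strand: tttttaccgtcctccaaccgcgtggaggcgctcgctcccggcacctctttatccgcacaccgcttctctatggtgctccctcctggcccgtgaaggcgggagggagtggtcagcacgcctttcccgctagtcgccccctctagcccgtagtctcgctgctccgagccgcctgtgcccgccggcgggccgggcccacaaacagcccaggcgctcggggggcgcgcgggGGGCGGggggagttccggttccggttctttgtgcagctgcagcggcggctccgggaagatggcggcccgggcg
As every window found held the GC box, the windows shown cannot relate it to the direction of change in liver.

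Libraries held between 543745 and 90441392 counts on genes (median 15995597). Naturals were sequenced less deeply than IVF offspring at E18.5 (2904727 to 4869139 against 8500054 to 15745480) and at 39 weeks (11438213 to 12705316 against 14033176 to 23318391). The 2 smallest libraries, of 543745 and 2137355 counts, were both IVF male livers. In male liver the median was 15917095 counts in naturals and 8240913 in the IVF group, with overlapping ranges. In female liver it was 7098069 and 17941742.5, also overlapping. Depth thus differed between naturals and IVF in opposite directions in the livers of each sex. Its part in the liver values was not tested. Liver and adult testis labels fitted their markers. Summed hepatocyte markers were at least 66801 CPM (counts scaled to a common library size) in every liver. Summed spermatid markers were at least 10189 CPM in every adult testis. Hepatocyte markers also reached 453 CPM among natural E18.5 testes (median 14.1), and spermatid markers 111 CPM among natural male livers (median 14.6). The levels below are CPM scaled by the trimmed mean of M-values (TMM) within each table. Levels compared between genes or tissues are CPM per kilobase (kb) of the longest coding transcript, scaled over all 72 libraries.

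The balance of paralogous subunits differed by tissue and age. In naturals, the lowest mean level of Smarcc2 in any tissue was 28.1 CPM per kb, at E18.5, and it was the highest of the 10 genes in 6 of the 7 tissues. Its libraries were above those of every other gene in the 12-week and F2 testes, and overlapped the next gene elsewhere, as in female liver with Smarca2 (43.8 ± 10.9 and 46.2 ± 10.8 CPM per kb, SD, n = 5). Smarca4 was highest in the 39-week testis (65.1 ± 6.67 CPM per kb, n = 4), followed by the 12-week testis (48.1 ± 1.95, n = 5) and F2 testis (47.6 ± 2.5, n = 5). These last values overlapped. Ovary followed (29.2 ± 2.9 CPM per kb, n = 4), and then E18.5 testis (20.8 ± 2), male liver (20.3 ± 3.63) and female liver (18.6 ± 3.76), whose libraries overlapped.

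**Figure D1:**
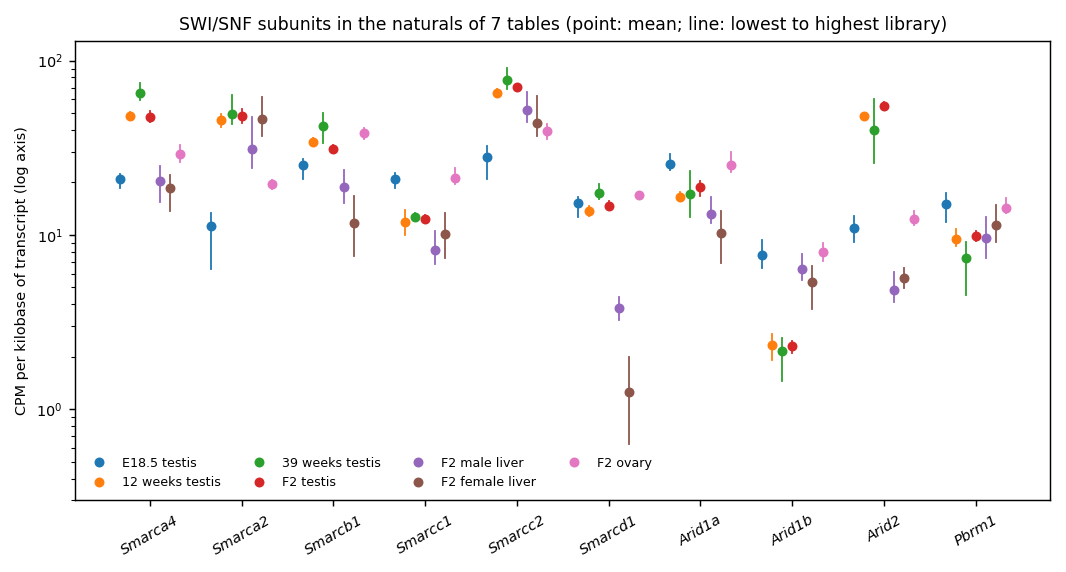
Mean level (points) and lowest to highest library (lines) of the 10 subunit genes in the naturals of each table, in CPM per kilobase on a log axis. Arid2 sits at 40 to 55.1 CPM per kb in the 3 adult testis groups and at 4.83 to 5.64 in the livers, and Arid1b at 2.16 to 2.32 in the adult testes and at 5.35 to 7.93 elsewhere.

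In naturals, levels of the subunit genes differed between the fetal and the adult testis, with the call for Smarcd1 depending on the setting. From E18.5 to 12 weeks, 5 of the 10 genes were higher and 5 lower (edgeR quasi-likelihood F test, Benjamini-Hochberg adjusted over all genes), with 45.1% and 39.2% of the 17009 genes tested called in these directions, so the number called does not set the subunits apart. Arid2 rose by 2.03 ± 0.10 on the log2 scale (SE, adjusted p = 4.22e-12), and on the common scale it read 9.09 to 12.9 CPM per kb in the 4 fetal libraries and 46.2 to 50.2 CPM per kb in the 5 adult ones. Smarca2 rose by 1.92 ± 0.18 (adjusted p = 2.26e-07), Smarcc2 by 1.11 ± 0.11, Smarca4 by 1.10 ± 0.08 and Smarcb1 by 0.32 ± 0.10.

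Arid1b, the alternative to Arid1a in BAF complexes, fell by 1.83 ± 0.13 on the log2 scale (adjusted p = 4.5e-10), with 6.49 to 9.39 CPM per kb in the fetal and 1.91 to 2.71 CPM per kb in the adult libraries on the common scale. Smarcc1 fell by 0.94 ± 0.10, Pbrm1 by 0.78 ± 0.10 and Arid1a by 0.76 ± 0.08. Smarcd1 had a log2 fold change of -0.25 ± 0.10 (adjusted p = 0.0321), and this call was lost in all 4 other settings tried and in 6 of the 9 fits with 1 library omitted. Within PBAF, Arid2 and Pbrm1 thus moved in opposite directions, and so did the scaffolds Smarcc2 and Smarcc1. The median over the 10 genes was 0.03, against 0.15 over all genes. Age cannot be told apart from the table in this comparison, and in whole tissue fewer cells of a type and less RNA per cell cannot be told apart. Summed spermatid markers were 4.3 to 8.97 CPM in the fetal naturals and 12946 to 14995 CPM at 12 weeks, and their part in the result was not tested.

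Ratios within a library do not depend on library scaling, and they too differed between the fetal and the adult testis. The mean log2 ratio of Smarcc1 to Smarcc2 was -0.42 ± 0.37 (SD, n = 4) in fetal naturals, where 1 library of 4 was above 0, and -2.48 ± 0.14 (n = 5) at 12 weeks. That of Arid1a to Arid1b was 1.75 ± 0.20 in the fetus and 2.83 ± 0.15 at 12 weeks, with no overlap. Smarca4 exceeded Smarca2 by 0.94 ± 0.61 in the fetus, and the ATPases were near parity at 12 weeks (0.07 ± 0.13). In ovary, Smarcc1 to Smarcc2 was -0.90 ± 0.08 (n = 4) and Arid1a to Arid1b 1.67 ± 0.08, both nearer to the fetal mean than to those of the adult testes, whereas Smarca4 to Smarca2 was 0.58 ± 0.09, between the means at E18.5 and at 39 weeks (0.42).

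**Figure D2:**
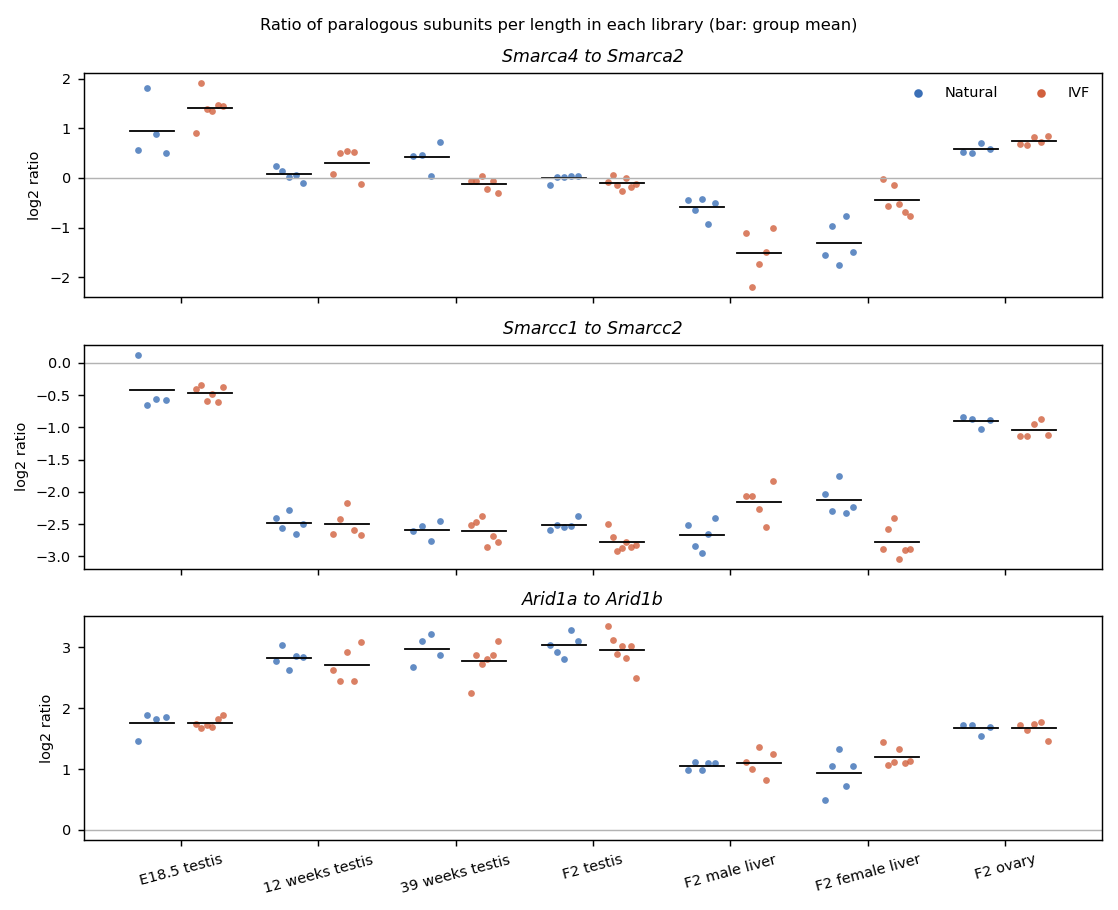
Log2 ratio per length of the paralogs Smarca4 to Smarca2, Smarcc1 to Smarcc2 and Arid1a to Arid1b in each library (points) with group means (bars), naturals in blue and IVF in orange. In male liver the mean Smarca4 to Smarca2 ratio is -0.59 in naturals and -1.51 in IVF, and in female liver -1.30 and -0.45.

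Against male liver, 8 of the 10 genes were higher and 1 was lower in F2 testis of naturals, with 58.1% and 34.4% of 20555 genes called in these directions. Arid2 was the highest of them, at a log2 fold change of 3.37 ± 0.09 (adjusted p = 1.7e-13), with means on the common scale of 4.83 ± 0.811 CPM per kb in liver and 55.1 ± 1.97 CPM per kb in testis (SD, n = 5 each). Smarcd1 followed at 1.81 ± 0.10 and Smarca4 at 1.11 ± 0.08. Arid1b was lower, at -1.60 ± 0.09 (adjusted p = 3.98e-10). Pbrm1 was at -0.07 ± 0.08 in this fit, and with DESeq2's size factors it was called at 0.29. The median over the 10 genes was 0.49 and that over all genes 1.25, or 1.61 with the size factors, so that 8 of the 10 genes stood below the general shift toward testis.

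At E18.5, none of the 10 genes was called between IVF and natural testes, with 1.17% of the 15406 genes tested called by edgeR, whereas 3 of the 10 had an unadjusted p under 0.05, as did 17.7% of all genes, and DESeq2's Wald test called 1 of the 10 and 5.9% of all genes. That gene was Pbrm1, the PBAF bromodomain subunit. It read 245, 219, 214 and 174 CPM in naturals and 266, 252, 280, 255, 247 and 266 CPM in IVF offspring. Every IVF library was above every natural one, as for 3.51% of all genes, and the log2 fold change was 0.29 ± 0.08 (edgeR adjusted p = 0.0798, DESeq2 adjusted p = 0.0156). With the trend on GC content removed it was 0.15 (edgeR adjusted p = 0.419).

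Arid2, its PBAF partner, had a log2 fold change of 0.19 ± 0.08 in the fetal testis, with overlapping groups (143 to 194 and 179 to 196 CPM). Smarca2 read 140, 67, 130 and 142 CPM in naturals and 107, 59.7, 89.3, 86.2, 78.1 and 76.1 CPM in IVF offspring, a log2 fold change of -0.53 ± 0.21 (edgeR adjusted p = 0.22). Natural 2 was far below the other 3 naturals, and without it Smarca2 was called lower at -0.73 (edgeR adjusted p = 0.0201). The other 7 genes lay between -0.10 and 0.07 on the log2 scale. Among the other chromatin genes, 2 of 23 ISWI, CHD and INO80 remodellers were called, both higher, against 0.818% of all genes. Of these, Atrx had the smaller adjusted p (log2 fold change 0.51 ± 0.07, edgeR adjusted p = 0.00776). With the GC trend removed, 1 gene in all was called, so these calls did not both hold. None of the 17 other SWI/SNF subunits tested and none of 26 Polycomb subunits was called.

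At 12 weeks, 1 of the 10 genes was lower in IVF testis and none higher, with 0.671% of the 20113 genes tested called lower. This was Arid2, which encodes the DNA-binding subunit of PBAF. It read 373, 373, 395, 401 and 407 CPM in naturals and 359, 307, 313, 305 and 325 CPM in IVF-conceived males. All 5 IVF libraries were below all 5 naturals, as for 2.15% of all genes, and the log2 fold change was -0.28 ± 0.06 (edgeR adjusted p = 0.0304). The size was small, the call was lost when any 1 of 6 libraries was left out (Natural 3, 4 or 5, or IVF 2, 3 or 4), and the fold change then stayed between -0.31 and -0.26. It was also lost with the replicate number as a block (-0.28, edgeR adjusted p = 0.109). The other 9 genes had log2 fold changes between -0.24 (Smarca2) and 0.17 (Smarcb1), and none of the other SWI/SNF subunits, the other remodellers or the Polycomb subunits was called. Smarca4 read 280 to 306 CPM in naturals and 256 to 313 CPM in IVF-conceived males, a log2 fold change of -0.01 ± 0.06.

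At 39 weeks, the contrast from which the list was drawn, Smarca4 read 355, 340, 390 and 437 CPM in naturals and 239, 265, 238, 290, 267 and 238 CPM in IVF-conceived males. The groups did not overlap, and the fitted log2 fold change was -0.57 ± 0.11. Smarcd1, the shared core subunit that contacts transcription factors, read 50.7, 47.9, 52.7 and 59.7 CPM in naturals and 40.1, 39.9, 42, 43.8, 42.5 and 42.9 CPM in IVF, also without overlap, at -0.33 ± 0.10. For comparison, 1.56% of the 20083 genes had all IVF libraries below all naturals. At an adjusted p under 0.05, 2 genes (0.00996%) were called in all, both of them higher in IVF.

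Smarcb1 was at -0.39 ± 0.14, Smarcc1 at -0.21 ± 0.10, Smarcc2 at -0.19 ± 0.11 and Arid1a at -0.17 ± 0.17, each with overlapping groups at 39 weeks. Smarca2, the alternative ATPase, was at -0.05 ± 0.14, with 230 to 353 CPM in naturals and 215 to 316 CPM in IVF. Arid2, Arid1b and Pbrm1 were at 0.04, 0.05 and 0.12. Arid2 was the most spread of the 10, from 198 to 479 CPM among the 4 naturals and from 234 to 481 CPM among the 6 IVF libraries. Naturals 1 and 2 were close to each other over all genes. Their median squared difference was 1.53 times counting noise, against 6.61 to 10.5 for the other natural pairs. The labels do not say whether they share an animal. The natural spreads, errors and lack of overlap at 39 weeks may therefore rest on fewer than 4 animals. By the same measure, Natural 3 and 4 at E18.5 stood at 1.62, with the same limit there. The median of the 10 genes was -0.18, against 0.01 over all genes and -0.11, -0.09 and -0.10 over the other SWI/SNF subunits, the other remodellers and the Polycomb subunits. With the GC trend removed, Smarca4 was at -0.46 and the median at -0.09. Summed Sertoli markers did not overlap either (679 to 802 CPM in naturals, 820 to 1025 CPM in IVF). Taken singly, 5 of the 8 Sertoli markers had fold changes above 0 and 3 below, with a median of 0.05 on the log2 scale. The part of these markers in the values was not tested.

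**Figure D3:**
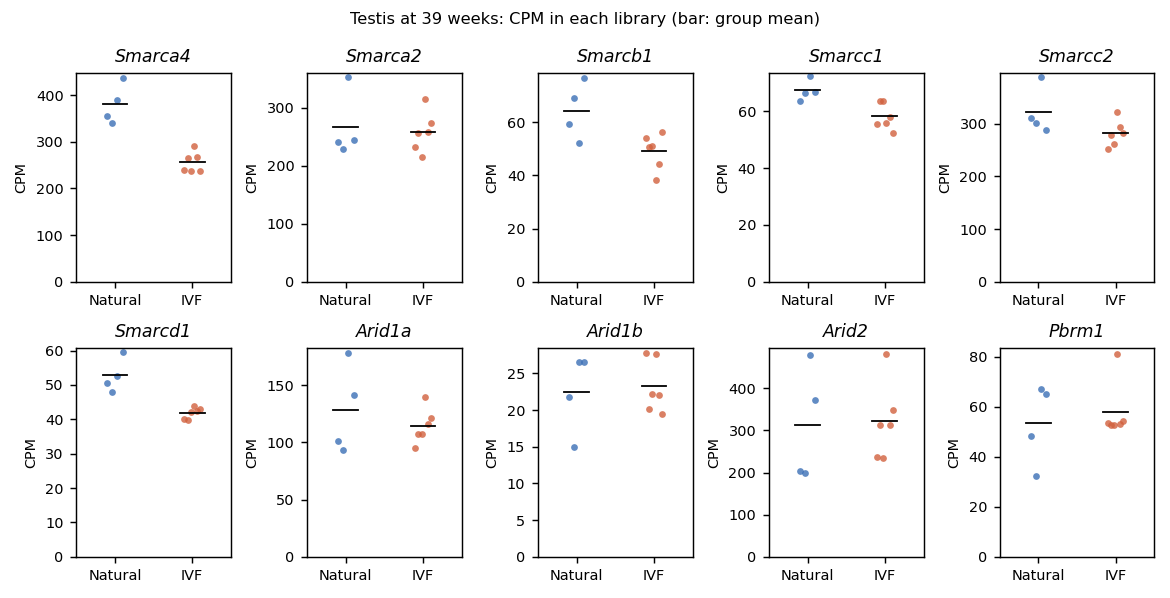
CPM of the 10 subunit genes in each library of the 39-week testis (points) with group means (bars), naturals in blue and IVF in orange, each panel from 0. The IVF libraries of Smarca4 lie at 238 to 290 CPM and the naturals at 340 to 437 CPM, while the groups overlap for 8 of the 10 genes.

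The 12-week and 39-week tables were normalized apart, so only levels are set side by side. On the common scale Smarca4 stood at 48.1 and 65.1 CPM per kb in naturals of 12 and 39 weeks and at 47.7 and 44.3 CPM per kb in IVF-conceived males. The log2 ratio of Smarca4 to Smarca2 was 0.42 ± 0.29 (SD, n = 4) in 39-week naturals and -0.12 ± 0.13 (n = 6) in IVF-conceived males.

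In F2 testis, 1 of the 10 genes was higher in sons of IVF-conceived males and none lower, with 0.942% of 21454 genes called higher. Smarcc2, a core scaffold, read 304, 302, 297, 298 and 288 CPM in sons of naturals. The 7 libraries from sons of IVF-conceived males ranged from 319 to 383 CPM (median 344). No library overlapped, with all IVF libraries above all naturals for 1.04% of genes, and the log2 fold change was 0.21 ± 0.05 (edgeR adjusted p = 0.0236). The call was lost in 7 of the 12 fits with 1 library omitted (any natural, or IVF 3 or 4), with the fold change between 0.18 and 0.23. It was also lost with the GC trend removed (0.19, edgeR adjusted p = 0.0578), with the replicate number as a block (0.19, edgeR adjusted p = 0.09) and with the most alike pairs of libraries summed (0.22, edgeR adjusted p = 0.115). The most alike pairs were IVF 3 and 4, at 1.3 times counting noise over all genes, and Natural 1 and 2, at 1.57. The labels do not say whether either pair shares an animal, so the groups may rest on fewer animals than libraries. Smarca4 was at 0.05 ± 0.06 and the remaining 8 genes were between -0.09 (Pbrm1) and 0.16 (Smarca2). Arid2, lower in IVF testis of F1 at 12 weeks, had the same mean in both F2 groups (436 ± 16.3 and 436 ± 30.5 CPM).

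In F2 male liver, 3 of the 10 genes were higher and 1 lower in the IVF group, with 16.1% and 18.4% of 11973 genes called in these directions. Smarca2 read 82.1, 77.4, 83.5, 118 and 93.4 CPM in sons of naturals and 163, 377, 224, 207 and 162 CPM in sons of IVF-conceived males. All IVF libraries were above all naturals, and the log2 fold change was 1.31 ± 0.23 (edgeR adjusted p = 0.00053). Smarcc1 rose from 23.4 ± 1.86 to 39 ± 9.73 CPM (SD, n = 5 each), a log2 fold change of 0.69 ± 0.19 (edgeR adjusted p = 0.00974). Pbrm1 rose from 37.6 ± 3.59 to 52.8 ± 9.35 CPM, at 0.44 ± 0.16 (edgeR adjusted p = 0.0385), and neither gene's groups overlapped. The Pbrm1 call was lost in 5 of 10 fits without 1 library and in 7 of 11 other settings.

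Smarcd1 was the gene that was lower in male liver. It read 7.28, 6.88, 6.68, 5.41 and 5.37 CPM in naturals and 3.38, 1.24, 4.81, 2 and 3.41 CPM in IVF, a log2 fold change of -1.17 ± 0.30 (edgeR adjusted p = 0.00779). The counts behind IVF 2 and IVF 3 were 2 and 2, under the floor of 3 counts. Without these libraries Smarcd1 was at -1.09 (edgeR adjusted p = 0.00583), Smarca2 at 0.98, Smarcc1 at 0.52 and Pbrm1 at 0.35, all called, and Smarca4 was then called too, at 0.37 (edgeR adjusted p = 0.0312). With all libraries Smarca4 read 52.8 to 71.3 CPM in naturals and 72.2 to 88.2 CPM in IVF, without overlap, at 0.34 ± 0.14 (edgeR adjusted p = 0.0731). Arid2 was at 0.57 ± 0.25 (edgeR adjusted p = 0.0893), where IVF 3, the library of fewest counts, read 72.2 CPM and the other 4 read 20.2 to 30 CPM. Smarcb1, Smarcc2, Arid1a and Arid1b were between -0.25 and 0.18 and overlapped. Across all, 27% of genes had groups that did not overlap, against 5 of the 10.

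In F2 female liver, 2 of the 10 genes were higher and 4 lower in the IVF group, with 25.4% and 23.6% of 12525 genes called in these directions. The 4 genes called in males were all called here with the opposite sign. How many of all genes did the same was not counted. The interaction of sex and conception, given below, was called for 54% of all 13073 genes tested, so the reversal does not set the subunits apart. Smarca2 read 174, 131, 224, 142 and 184 CPM in daughters of naturals and 54.1, 122, 70.2, 97.7, 104 and 101 CPM in daughters of IVF-conceived males, at -0.90 ± 0.20 (edgeR adjusted p = 0.00134). Smarcc1 fell from 36.5 ± 9.07 (SD, n = 5) to 21.2 ± 2.53 CPM (n = 6), at -0.78 ± 0.16 (edgeR adjusted p = 0.000873). Arid2 fell from 30 ± 2.15 to 20.8 ± 2.87 CPM, at -0.53 ± 0.13 (edgeR adjusted p = 0.00297), and Pbrm1 from 55.5 ± 5.92 to 43.1 ± 4.38 CPM, at -0.37 ± 0.12 (edgeR adjusted p = 0.0158). For these 4 genes every IVF library was below every natural, as for 13.1% of all genes.

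Smarcd1 rose in female liver, from 1.52, 2.17, 2.26, 3.31 and 3.29 CPM in naturals to 10.1, 5.21, 5.45, 5.56, 5.32 and 4.77 CPM in IVF without overlap (16.4% of genes in this direction), at 1.20 ± 0.28 (edgeR adjusted p = 0.00191). The natural libraries rested on 5 to 102 counts. Smarcb1, the core subunit, was at 0.47 ± 0.18 (edgeR adjusted p = 0.0402) with overlapping groups, and its call was lost in 9 of 11 fits without 1 library. Smarca4 was at -0.07 ± 0.13, Smarcc2 at -0.11 ± 0.12, Arid1a at 0.05 ± 0.13 and Arid1b at -0.21 ± 0.13.

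The difference between the sexes was tested as an interaction over the 21 livers. The livers of each sex came from their own table, so sex cannot be told apart from the table and its sequencing. It was called for 5 of the 10 genes, 4 with the higher effect in males (25.9% of 13073 genes) and 1 with the lower (28.1%). The effect in males minus that in females was 2.19 ± 0.31 on the log2 scale for Smarca2 (edgeR adjusted p = 1.58e-06), 1.45 ± 0.24 for Smarcc1, 1.08 ± 0.28 for Arid2 and 0.80 ± 0.19 for Pbrm1. For Smarcd1 it was -2.38 ± 0.40 (edgeR adjusted p = 1.81e-05). All 5 kept their call whichever of the 21 libraries was omitted. Smarca4 was at 0.40 ± 0.19 (edgeR adjusted p = 0.0743) and Smarcc2 at 0.27 ± 0.20.

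**Figure D4:**
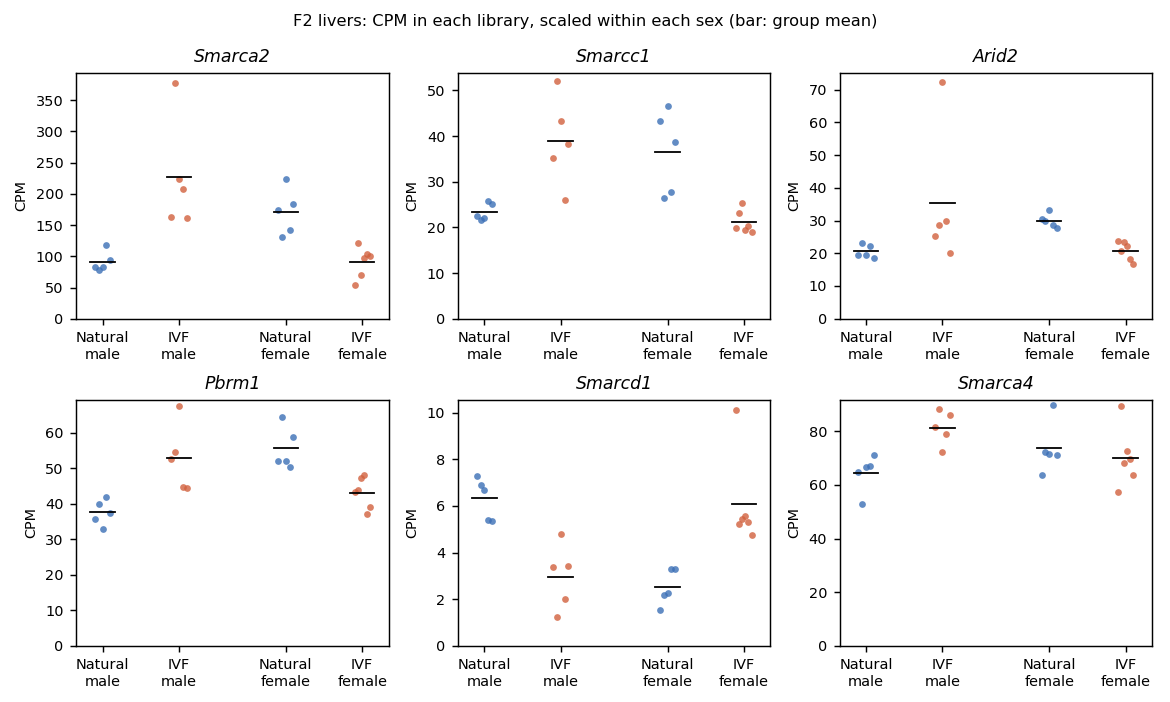
CPM of 6 subunit genes in each F2 liver library (points) with group means (bars), naturals in blue and IVF in orange, scaled within each sex. Smarca2 and Smarcc1 are higher in IVF males and lower in IVF females, and Smarcd1 the reverse, while Smarca4 overlaps in females.

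In both livers the fold changes followed base composition over the whole transcriptome. Spearman's rho between the GC content of the transcript and the log2 fold change, across genes, which are not independent replicates, was -0.61 in male and 0.72 in female liver, against -0.44 to 0.20 in the other tables. The transcripts of the 5 genes that differed between the sexes were 51.1% (Smarca2), 48.4% (Smarcc1), 45.9% (Arid2), 41.8% (Pbrm1) and 57.2% GC (Smarcd1), and that of Smarca4 55.9%. With this trend removed, Smarca2 stayed called at 1.58 in male and -1.04 in female liver and Smarcc1 at 0.63 and -0.62. Smarcd1, Arid2 and Pbrm1 were then not called in either liver, and Smarca4 was called at 1.10 in males and -0.75 in females. Smarcc2 was then called in both livers and Arid1b in female liver, and Arid1a in both with its direction turned. In this setting 2181 of 11973 genes were called in male and 3165 of 12525 in female liver. The interaction was then called for 6 of the 10 genes and 34.8% of all, Smarca2 (2.69) and Smarcc1 (1.29) among them and Smarcd1, Arid2 and Pbrm1 not. With the share of reads mapped as a covariate, 1 of the 10 genes was called in each liver, Smarca2 in males (0.94) and Pbrm1 in females (-0.56), with 12.4% and 10.6% of all genes called. The interaction was then called for 4 of the 10 and 27.8% of all genes, and that of Smarcc1 was lost at 0.67 (edgeR adjusted p = 0.0735). Summed hepatocyte markers were 151479 to 234603 CPM in natural and 101272 to 121283 CPM in IVF female livers, without overlap, and 66801 to 91097 against 79143 to 132646 CPM in males. The 7 markers did not all move alike. In females 2 were above 0 and 5 below (median log2 fold change -0.25), and in males 5 were above and 2 below (0.17). The part of these markers in the result was not tested.

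The scale also mattered in liver, at E18.5 and in ovary. Over all 72 libraries, the direction turned for 3 of the 10 genes at E18.5 (Smarca4, Smarcb1 and Smarcd1) and for 2 in ovary (Smarca2 and Smarcb1). It turned for 0 in each adult testis table and for 3 in each liver. On the scale set over all 72 libraries, Smarca2 had means of 31.1 ± 9.49 and 53.4 ± 16.3 CPM per kb in natural and IVF males and Smarcd1 of 3.79 ± 0.424 and 1.27 ± 0.531, but Pbrm1 of 9.55 ± 1.89 and 9.41 ± 1.05. Smarca4 then had means of 20.3 ± 3.63 and 18.6 ± 4.37 CPM per kb and Smarcc2 of 51.8 ± 8.64 and 41.6 ± 4.24, so the directions given for Pbrm1, Smarca4 and Smarcc2 in male liver rest on scaling within the table. The groups of Smarcc1 overlapped on this scale (8.15 ± 1.53 and 9.48 ± 1.84 CPM per kb). In female liver Smarca4, Smarcc2 and Arid1b turned, at 0.25, 0.21 and 0.11 as the log2 ratio of the means, and Pbrm1 was at -0.07. Over the 10 genes the ratio on this scale differed from the fitted fold change by a median of -0.47 in male and 0.32 in female liver. The ratio of Smarca4 to Smarca2, which needs no scaling, had a log2 mean of -0.59 ± 0.21 in natural and -1.51 ± 0.48 in IVF males (n = 5 each) without overlap, and of -1.30 ± 0.42 (n = 5) and -0.45 ± 0.30 (n = 6) in females, where the lowest IVF library was at -0.76 and the highest natural at -0.77. It is not free of the GC trend, as the transcripts differ in GC content (55.9% for Smarca4, 51.1% for Smarca2). With that trend removed, the fold changes of both genes given above lay nearer to each other in each sex.

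Of 13 other SWI/SNF subunits tested in male liver, 4 were higher and 3 lower, where 16.1% and 18.4% of all genes were called. Of 15 in female liver, 3 were higher and 5 lower, where 25.4% and 23.6% of all genes were called. The subunits named here had opposite signs in the livers. Smarce1, a core subunit with an HMG domain, was at 1.21 ± 0.20 in males and -0.84 ± 0.18 in females. The bromodomain subunit Brd7 was at 1.12 ± 0.22 and -1.06 ± 0.17, and Phf10, a PBAF subunit, at 1.00 ± 0.21 and -1.01 ± 0.19. Dpf2, a PHD finger subunit of BAF, was at -0.70 ± 0.20 and 1.05 ± 0.18, Smarcd2, a paralog of Smarcd1, at -0.71 ± 0.21 and 0.96 ± 0.15, and Bcl7a at -1.02 ± 0.20 and 0.85 ± 0.27. Each of these 6 was called in both sexes by edgeR. The share of all genes called in both livers with opposite signs was not counted. No values of these 6 genes with the GC trend removed are given.

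**Figure D5:**
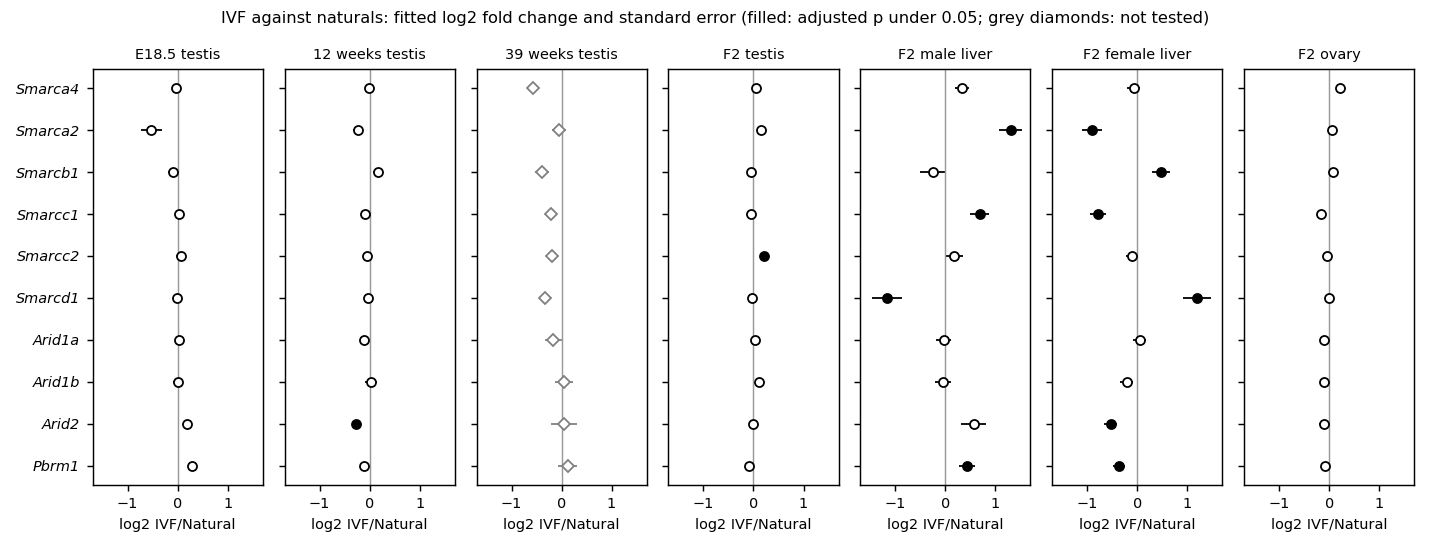
Fitted log2 fold change of IVF against naturals with its standard error for the 10 subunit genes in the 7 tables, filled where the adjusted p was under 0.05 and as grey diamonds where no test applies (39 weeks). Smarca2, Smarcc1 and Smarcd1 are filled on opposite sides in the male and female livers, and no gene is filled at E18.5 or in ovary.

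In F2 ovary, none of the 10 genes was called, as for none of the 16502 genes tested by edgeR (0% called), whereas 2 of the 10 and 10.6% of all genes had an unadjusted p under 0.05, and DESeq2 called 170 genes (1.03%), none of them among the 10. Smarca4 read 237, 237, 294 and 249 CPM in daughters of naturals and 306, 280, 288, 288 and 306 CPM in daughters of IVF-conceived males, at 0.21 ± 0.08 (edgeR adjusted p = 0.43). Natural 3 lay within the IVF range. Smarcc1 read 159 to 175 CPM in naturals and 140 to 166 CPM in IVF, at -0.17 ± 0.07 (edgeR adjusted p = 0.454). The other 8 genes lay between -0.11 and 0.07, and no gene's groups were free of overlap.

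Over the mean log2 CPM of the 14 groups, the genes whose pattern was most like that of Smarca4, among 10168 that passed the filter in every table, were Lyrm9 (Pearson r = 0.985), Rnf220 (0.983), Ehbp1l1 (0.983), Supt5 (0.98) and Ccdc57 (0.978). The groups share tables, depth and tissue, so r is a description. Of the other 9 subunit genes, Arid2 was the most like Smarca4 (r = 0.929, rank 546), followed by Smarcc2 (0.79) and Smarcb1 (0.77), and Arid1b ran opposite (-0.822).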

How the data were processed

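The measurement was poly(A) RNA sequencing of 72 libraries from 7 tissue and age sets, prepared with a stranded mRNA kit from snap-frozen tissue. The authors deposited 7 tables of whole-number read counts per gene symbol, 6 of 35976 symbols and that of E18.5 testis of 25239. The submitters' processing notes name Trimmomatic 0.32, STAR 2.3.0e, featureCounts 1.5.0, DESeq2 and the build mm10, with no order. Low counts were mostly even (59% to 94.2% by library), as when both mates of a pair are counted, so counting intervals would be too narrow and none are given. Groups and replicate numbers came from the sample titles. The design text gives 4 and 4 female livers, whereas the titles give 5 natural and 6 IVF, which were used.

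Counts were filtered by expression, normalized by TMM and tested in R 4.3.3 with the quasi-likelihood F test of edgeR 4.0.16 (limma 3.58.1), two-sided, IVF against naturals within each table, with Benjamini-Hochberg adjustment over all genes tested and a call at an adjusted p under 0.05 with no fold limit. Errors of fold changes are the log2 fold change divided by the square root of F. The interaction model held sex, conception and their product. The 2 comparisons between tables and the interaction, which joined both liver tables, used shared symbols. Lengths and GC content came from the longest protein-coding transcript of GENCODE M21. Script steps were tested on simulated data. Alternatives were DESeq2 1.42.0 (its size factors and its Wald test), other count filters, a 1.5-fold limit, removal of the GC trend, halved counts, 1 surrogate variable (sva 3.50.0), the share of mapped reads (from the study's supplementary mapping statistics) as a covariate, the replicate number as a block, and each library left out.

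The 10 genes, the lists (other SWI/SNF subunits, other remodellers, Polycomb subunits, markers) and the tests were chosen with earlier results of these data known. Named beyond the 10 are the called genes with the smallest adjusted p in each direction, up to 3 for the other SWI/SNF subunits and 1 for each other list, and the 5 genes most like Smarca4. Same-numbered naturals and IVF libraries did not deviate together throughout any table (0 of 7 tables had every pair at a correlation over 0.1), so numbers were not taken as pairs. Single pairs did exceed 0.1, 2 of 4 at 39 weeks (highest 0.3) and 1 of 5 in F2 female liver (0.17).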

Additional observations from a re-analysis of the deposited data

Results flagged for a closer look

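In 12 of the 140 sets of 4 to 7 libraries (10 genes in 14 groups), the highest or lowest library stood apart from the rest by Dixon's criterion, where chance gives about 1 in 20. At E18.5, Smarca2 in Natural 2 was at 67 CPM, with the nearest natural at 130. In testis at 39 weeks, Smarca2 in Natural 3 was at 353 CPM (nearest 244) and Pbrm1 in IVF 4 at 81 CPM (nearest 54.4). In male liver, Smarca2 in IVF 2 was at 377 CPM (nearest 224) and Arid2 in IVF 3 at 72.2 CPM (nearest 30), and these are the 2 libraries of fewest counts. In female liver, Smarcd1 in IVF 1 was at 10.1 CPM (nearest 5.56) and Arid1b in Natural 3 at 30.5 CPM (nearest 37.6). In ovary, Smarca2 in Natural 3 was at 168 CPM (nearest 155), Smarcd1 in Natural 1 at 72.1 CPM (nearest 77.3), Smarcd1 in IVF 5 at 83.3 CPM (nearest 75), Arid1a in IVF 5 at 233 CPM (nearest 262) and Arid2 in IVF 2 at 162 CPM (nearest 127).

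By edgeR's test of the interaction, the effect of IVF differed between male and female liver for 5 of the 10 genes. The test called 54% of all 13073 genes, so the count does not set the subunits apart. Sex cannot be told apart from the table in this test. The effect in males minus that in females was 2.19 for Smarca2, 1.45 for Smarcc1, 1.08 for Arid2, 0.80 for Pbrm1 and -2.38 for Smarcd1 on the log2 scale, with adjusted p of 1.58e-06, 1.37e-05, 0.0017, 0.000647 and 1.81e-05.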

How the results depend on the processing

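Counts of called subunits changed by over 1.5 times in 12 of 87 alternatives that kept all groups. With the 1.5-fold limit, 0 of the 10 genes were called at 12 weeks and in F2 testis, 3 in female liver and 5 between testis and male liver, against 1, 1, 6 and 9. DESeq2's Wald test called 1 at E18.5 against 0. With the replicate block, 0 were called at 12 weeks and 0 in F2 testis, and the block lost 1 call in male liver (3 of 4) and 2 in female liver (4 of 6). F2 testis also had 0 with the GC trend removed and 0 with its most alike pairs of libraries summed, a choice made after seeing the data. A minimum of 10 counts in every library left 2 in male liver, and the mapped share as a covariate 1 in male and 1 in female liver. Left out 1 library at a time, counts ranged from 0 to 1 at E18.5 (1 without Natural 1 or Natural 2), at 12 weeks and in F2 testis. In none of these cases was the cause tested. Dropping the 2 smallest male livers, or libraries mapped under 60%, was also chosen after seeing the data.

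Of 1715 single values with a test, 1554 kept direction and call, 68 lost and 24 gained a call, and 69 turned direction, of which 61 were called in neither fit. The other 8 turned as follows. With the GC trend removed, Arid1a was at 0.81 in male liver, -0.71 in female liver and 1.58 for the interaction, all called, Smarcb1 at -0.16 and Pbrm1 at 0.27 in female liver, and Pbrm1 at -0.22 for the interaction, not called. Between testis and male liver, Pbrm1 was at 0.29 with DESeq2's size factors and 0.28 by its Wald test. At 39 weeks, where no test was made, 16 of 180 values turned, and the median stayed between -0.24 and -0.09 in the alternatives that kept all groups. Smarcd1 in liver rested on few counts, and its calls there were lost with the GC trend removed and with the mapped share as a covariate, and held with counts halved.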

Other observations

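Atrx, Ruvbl2 and Phf1, chromatin genes outside SWI/SNF, moved in opposite directions in the male and female F2 livers. Of the ISWI, CHD and INO80 remodellers, 10 of 21 tested were higher and 1 lower in the male IVF group, and 2 of 21 were higher and 11 lower in the female one. For all genes these shares were 16.1% and 18.4% in males and 25.4% and 23.6% in females. Fold changes in these livers followed GC content over all genes (Spearman's rho -0.61 in males and 0.72 in females). For the genes of this paragraph, no values with that trend removed or the mapped share as a covariate are given. The part of either in these counts was not tested. Atrx, a remodeller that deposits histone H3.3, was at 1.37 ± 0.21 on the log2 scale in males (edgeR adjusted p = 0.000247) and at -1.46 ± 0.15 in females (edgeR adjusted p = 1.33e-05), and Ruvbl2, an ATPase of INO80, at -0.67 ± 0.24 and 1.00 ± 0.22. The interaction was called for 14 of 22 tested, 12 with the higher effect in males, against 54% of all genes (25.9% with the higher effect in males), and Atrx was at 2.81 ± 0.25. Of the Polycomb subunits, 3 of 25 were higher and 6 lower in males, and 6 of 26 were higher and 8 lower in females. Phf1, an accessory subunit of PRC2, was at -2.04 ± 0.28 and 1.90 ± 0.23, Ezh2, its methyltransferase, was at 1.12 ± 0.33 in males, and Phc3 at -0.99 ± 0.18 in females. The interaction was called for 8 Polycomb subunits in one direction and 9 in the other, among them Mtf2 (1.79 ± 0.33) and Phf1 (-3.95 ± 0.37), and for 5 and 3 of 15 other SWI/SNF subunits, Brd7 at 2.16 ± 0.28.

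Between the natural testes of E18.5 and 12 weeks, 6 of 15 other SWI/SNF subunits were higher and 6 lower at 12 weeks, where 45.1% and 39.2% of all genes were called. Among them, Actl6a (1.86 ± 0.10) and Dpf3 (2.93 ± 0.24) were higher and Bcl7a (-3.55 ± 0.19) and Smarcd3 (-2.26 ± 0.24) lower on the log2 scale. Of 23 other remodellers, 4 were higher, among them Baz2a (2.37 ± 0.08), and 13 lower, among them Atrx (-3.23 ± 0.10). Of 26 Polycomb subunits, 8 were higher, among them Phc1 (2.26 ± 0.09), and 11 lower, among them Cbx6 (-3.24 ± 0.10). Against male liver, testis of F2 naturals had 9 of 15 other SWI/SNF subunits higher and 4 lower, 11 of 23 other remodellers higher and 7 lower, and 12 of 26 Polycomb subunits higher and 11 lower, where 58.1% and 34.4% of all genes were called. Actl6a was at 2.07 ± 0.08, Ep400 at 2.79 ± 0.08 and Phc1 at 6.02 ± 0.14, and Bcl7a at -3.34 ± 0.15, Atrx at -2.06 ± 0.11 and Cbx8 at -1.91 ± 0.17.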
